A study of Mus musculus with 143 samples.

Results

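This report describes subcutaneous TC1 tumours from mice given muDX400, an antibody that blocks PD-1, an inhibitory receptor on T cells, set against TC1 tumours from mice given a mouse IgG1 isotype antibody. The libraries were chosen by their labels, which gave 5 muDX400 and 5 isotype libraries, 10 of the 143 in the series. TC1 cells were placed under the skin of the right lower flank, antibody was given on days 11 and 15 after implantation in both arms, and tumours were taken on day 19, which the labels call 8 days. The labels class TC1 as Resistant to PD-1 blockade and name neither the host strain nor the age of the mice. TC-1 is known as a line of mouse lung epithelial cells transformed with papillomavirus oncogenes and an activated Ras gene. Values from 3 untreated TC1 baseline tumours and from the muDX400 and isotype arms of LL2, B16F10 and MC38 tumours, 5 libraries per arm, are used for comparison.

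PD-1 sits on activated T cells and dampens signalling from the T-cell receptor when it meets its ligands PD-L1 (Cd274) and PD-L2 (Pdcd1lg2). Antibodies that block it can raise T-cell killing and interferon-gamma release, and interferon-gamma in turn switches on antigen presentation and the chemokine Cxcl9 in tumour and myeloid cells. Tumour vessels are built from endothelial cells, joined by Pecam1 and Cdh5 at their junctions, and are wrapped by pericytes. Levels are given in FPKM, fragments per kilobase of transcript scaled to library depth. Differences are muDX400 minus isotype on the log2(FPKM + 1) scale, with the standard error from limma, and p-values are 2-sided and adjusted by Benjamini-Hochberg over all genes tested. The threshold was an adjusted p of 0.05.

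Estimated depth was 21.1 to 24.5 M fragments in muDX400 libraries and 18.2 to 20.9 M in isotype libraries, so that the arms did not overlap in depth. At these depths 1 fragment in a transcript of 1 kb is worth 0.041 to 0.055 FPKM. Correlations between replicates of an arm were 0.977 to 0.994. On the leading principal component, which held 33.1% of the variance, muDX400 replicates 5 (26.2) and 3 (15.8) stood apart from the other libraries, which lay between -15.1 and 0.744. The genes with the largest positive weights were Cfd, Hp, Car3, Serpina3n and Cyp2e1, with Cidec and Adipoq also among the leading 10, and Pcdhgc4, Arhgap5 and Dnm3os had the largest negative weights. Of 12 lung epithelial genes 3 had 1 FPKM in at least 5 libraries. Their list mean on the log2(FPKM + 1) scale was 0.8845 in isotype tumours, rank 3 of 11 models. Nkx2-1 and Sftpc, markers of lung epithelium, were listed at 0 in all 10 libraries. The general epithelial genes were low, with Epcam between 0.169 and 1.02 FPKM and Krt8 between 0.755 and 2.66 FPKM. Cdkn2a, which rises when papillomavirus proteins disable the retinoblastoma protein, had 279.8 to 359 FPKM in muDX400 tumours and 305 to 354 FPKM in isotype tumours, and its isotype mean was the highest of the 11 models.

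Treatment with muDX400 changed few transcripts in TC1 tumours. Those that changed are known from vessels, connective tissue, complement and myeloid cells, and none is a T-cell gene. Of the pan T-cell genes 12 of 15 were under the filter on low values (1 FPKM in at least 5 libraries), as were Cd8a, Cd4, Foxp3, Ifng and Pdcd1, so these could not be called. Of 12470 genes tested, 10 passed the threshold as higher (0.0802%) and 0 as lower (0%). The higher genes were Cxcl14, Ccn5, Mfap5, C2, S100a9, Adgrf5, Ednrb, Pecam1, Cdh5 and Abcc9, with differences of 0.55 to 2.12. At an unadjusted p under 0.05, 553 genes were higher (4.43%) and 264 lower (2.12%), and the arms did not overlap at all for 160 higher genes (1.28%) and 27 lower genes (0.217%). The median difference over all genes was 0.001. The count moved with single libraries: leaving out muDX400 replicate 2 or 5, or isotype replicate 1, 2, 3 or 4, left 0 genes past the threshold, while leaving out muDX400 replicate 1, 3 or 4 or isotype replicate 5 gave 36, 3, 8 and 13. With no expression filter 1 gene passed, the pseudogene Gm16589, and with the spread estimated from 40 libraries of 4 models 0 passed; the 10 genes kept a positive difference under each alternative in which they were tested, and C2 and S100a9 fell under the filter without muDX400 replicates 3 and 5.

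**Figure D1:**
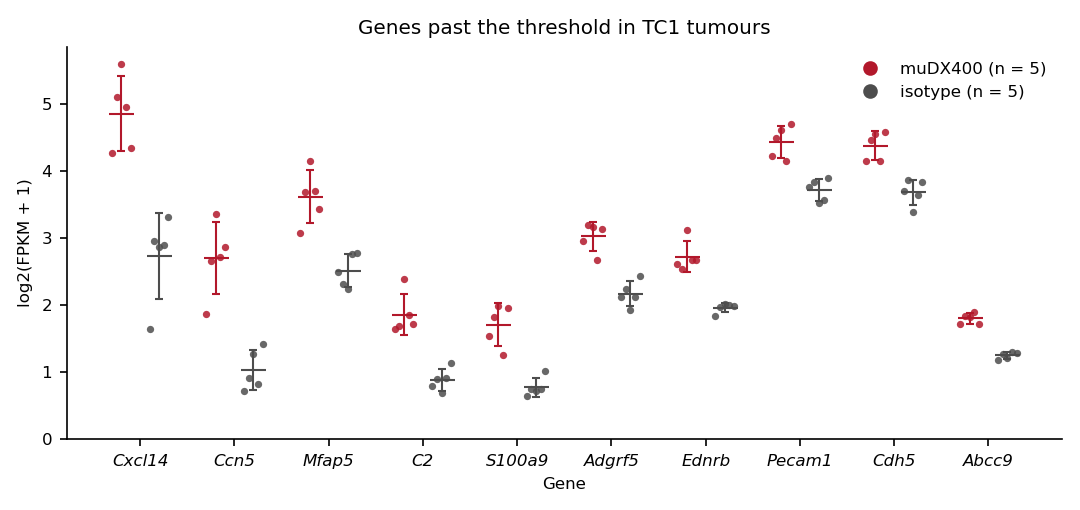
Level of the 10 genes past the threshold in each TC1 library, as log2(FPKM + 1), with muDX400 tumours in red to the left of isotype tumours in grey; bars are the mean and SD of 5 libraries. For each of the 10 genes every muDX400 library lies above every isotype library.

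The endothelial junction genes Pecam1 and Cdh5 rose in muDX400 tumours, as did the receptor genes Adgrf5 and Ednrb. Pecam1, the junction protein CD31 (chr11:106654217-106750628 in GRCm38, minus strand), had 17.7, 21.7, 23.6, 16.8 and 25.1 FPKM in muDX400 tumours, against 12.6, 13.3, 10.6, 10.9 and 13.9 FPKM in isotype tumours. The difference was 0.72 ± 0.11 (SE, adjusted p = 0.0449 by limma) and the arms did not overlap. Cdh5, the cadherin of endothelial junctions (chr8:104101625-104144511, plus strand), had 16.9, 21.04, 22.6, 16.8 and 23.1 FPKM in muDX400 tumours, against 12.1, 13.6, 9.54, 11.5 and 13.3 FPKM in isotype tumours, a difference of 0.69 ± 0.11 (adjusted p = 0.0449, limma). Its arms did not overlap either, and in both genes muDX400 replicates 3 and 5 were the highest and replicates 1 and 4 the lowest of their arm. These calls depended on the processing: over 19 alternatives Cdh5 passed the threshold in 5 and Pecam1 in 7, beside 9 for Adgrf5 and 10 for Ednrb.

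Adgrf5, an adhesion G protein-coupled receptor of capillary endothelium and lung epithelium (chr17:43360451-43459557, plus strand), had 6.77, 8.16, 7.97, 5.41 and 7.80 FPKM in muDX400 tumours, against 3.34, 3.72, 2.81, 3.35 and 4.42 FPKM in isotype tumours. Its difference was 0.86 ± 0.12 (adjusted p = 0.0225, limma). Ednrb, the type B endothelin receptor, which endothelial cells carry (chr14:103814625-103844402, minus strand), had 5.14, 4.83, 7.71, 5.37 and 5.36 FPKM in muDX400 tumours, against 2.58, 2.93, 3.06, 3.001 and 2.96 FPKM in isotype tumours. The isotype values of Ednrb were close together, and the difference was 0.76 ± 0.10 (adjusted p = 0.0225, limma).

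Of the 11 genes of the endothelial list, 10 passed the filter on low values, and Tek, the angiopoietin receptor, did not. Pecam1 and Cdh5 rose, and the other 8 did not pass the threshold. All 10 tested members had a positive difference with an unadjusted p under 0.05, where 4.43% of all genes did, and for 6 of them the arms did not overlap, where 1.28% of all genes did so in this direction. The median difference of the 10 was 0.49, beside 0.001 over all genes. Tie1, an orphan receptor kinase of endothelium, averaged 7.16 ± 1.48 FPKM in muDX400 tumours and 4.28 ± 0.697 FPKM in isotype tumours (SD, n = 5 each; difference 0.62, limma adjusted p = 0.114). Kdr, the main receptor for VEGF-A, averaged 4.75 ± 0.883 FPKM in muDX400 tumours and 3.17 ± 0.393 FPKM in isotype tumours (difference 0.46, limma adjusted p = 0.185). Vwf, Cldn5, Eng, Emcn, Ptprb and Esam had differences of 0.32 to 0.58. The mean of the list on the log2(FPKM + 1) scale was 2.88, 3.14, 3.29, 2.90 and 3.30 in muDX400 replicates 1 to 5, against 2.57, 2.71, 2.47, 2.50 and 2.67 in isotype replicates 1 to 5, with no overlap. In bulk tumours a larger number of endothelial cells and more of these transcripts per cell cannot be told apart.

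Lists assembled after values had been seen add detail and are given as description. In the capillary list, Gpihbp1, which anchors lipoprotein lipase on capillaries, averaged 18.5 ± 3.62 FPKM in muDX400 tumours and 11.7 ± 1.88 FPKM in isotype tumours, and Adgrl4, an endothelial adhesion receptor, averaged 3.47 ± 0.428 FPKM and 2.02 ± 0.292 FPKM in the same order of arms. Their adjusted p by limma were 0.109 and 0.0529. The VEGF receptors Flt1 and Flt4 had differences of 0.28 and 0.36 with no overlap of arms, and neither passed the threshold (limma adjusted p = 0.151 and 0.166). The ligand Vegfa differed by 0.11 with overlapping arms. Vcam1 and Icam1, which leukocytes bind on activated endothelium, had differences of -0.03 and -0.04, also with overlapping arms.

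Pericyte transcripts showed a single called gene. Abcc9, a potassium channel subunit of pericytes (chr6:142587862-142702315, minus strand), had 2.29, 2.60, 2.56, 2.74 and 2.28 FPKM in muDX400 tumours, against 1.28, 1.42, 1.30, 1.45 and 1.44 FPKM in isotype tumours. The difference was 0.55 ± 0.07 (adjusted p = 0.0225, limma). It is annotated beside Kcnj8, its partner in that channel, which averaged 4.01 ± 0.312 FPKM in muDX400 tumours and 2.87 ± 0.299 FPKM in isotype tumours and did not pass (limma adjusted p = 0.128). Of the 9 genes of the list 6 were tested, all 6 had a positive difference, and the median was 0.35. Rgs5, a regulator of G protein signalling in pericytes, differed by 0.42, whereas Cspg4, which also marks pericytes, differed by 0.05 and its isotype mean of 22.5 FPKM was the highest of the 11 models.

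Promoters of called genes are shown as a description, and none was found for Pecam1 or Cdh5. RefSeq promoters (GRCm38.p6, 250 bases before to 50 after the start) were found for 5 of the 10 called genes, which have 6 promoters in the table. They are those of Ednrb, Abcc9, Cxcl14 and S100a9 and both of Adgrf5. The promoter of S100a9 and the second of Adgrf5 are counted but not printed. Cxcl14 and S100a9 were not among the vascular genes. So few promoters allow no conclusion from a comparison with the share of all promoters. Capitals mark CAGGAA, read on either strand, so that the reverse match appears as TTCCTG; it contains GGAA, the core bound by ETS factors, which include regulators of endothelial genes.
Adgrf5, chr17:43360181-43360480, plus strand: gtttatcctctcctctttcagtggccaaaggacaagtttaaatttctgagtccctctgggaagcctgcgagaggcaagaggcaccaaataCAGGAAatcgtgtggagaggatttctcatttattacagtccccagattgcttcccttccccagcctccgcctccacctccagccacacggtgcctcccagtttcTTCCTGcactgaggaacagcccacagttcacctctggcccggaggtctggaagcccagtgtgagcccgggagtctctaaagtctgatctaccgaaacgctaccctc
Ednrb, chr14:103843652-103843951, minus strand: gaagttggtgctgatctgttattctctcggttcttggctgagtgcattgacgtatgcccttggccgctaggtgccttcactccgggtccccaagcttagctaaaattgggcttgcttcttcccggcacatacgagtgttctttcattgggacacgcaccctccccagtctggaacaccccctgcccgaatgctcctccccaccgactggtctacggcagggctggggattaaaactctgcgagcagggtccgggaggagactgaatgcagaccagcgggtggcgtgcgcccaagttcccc
Abcc9, chr6:142702225-142702524, minus strand: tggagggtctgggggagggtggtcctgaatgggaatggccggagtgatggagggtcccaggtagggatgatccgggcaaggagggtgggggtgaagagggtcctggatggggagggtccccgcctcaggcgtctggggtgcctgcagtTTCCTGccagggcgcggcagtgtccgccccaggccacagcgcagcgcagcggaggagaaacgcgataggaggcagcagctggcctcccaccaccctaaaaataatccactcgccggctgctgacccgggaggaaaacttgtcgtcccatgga
Cxcl14, chr13:56296502-56296801, minus strand: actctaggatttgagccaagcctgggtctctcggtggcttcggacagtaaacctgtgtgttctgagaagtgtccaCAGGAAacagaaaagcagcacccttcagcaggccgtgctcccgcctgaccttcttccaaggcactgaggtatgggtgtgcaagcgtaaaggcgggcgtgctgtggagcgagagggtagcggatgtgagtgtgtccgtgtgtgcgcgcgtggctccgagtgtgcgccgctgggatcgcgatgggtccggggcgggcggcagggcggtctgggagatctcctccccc
CAGGAA lay in 5 of the 6 promoters, that of Ednrb being the exception, and in 30.6% of all 32851 promoters of this length. The shorter GGAA, which overlaps it, lay in all 6 and in 96.0% of all promoters, and CCGGAA, another ETS-type sequence that holds GGAA, in 0 of the 6 and in 14.9% of all promoters. A match is a description of the sequence and no sign of binding.

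The connective tissue genes Cxcl14, Ccn5 and Mfap5 had the largest differences of the called genes. Cxcl14, a chemokine of fibroblasts and skin epithelium (chr13:56288643-56296551, minus strand), had 18.3, 33.6, 47.8, 30.2 and 19.3 FPKM in muDX400 tumours, against 2.12, 6.75, 6.34, 6.43 and 8.99 FPKM in isotype tumours. The lowest muDX400 tumour lay above the highest isotype tumour, and the difference was 2.12 ± 0.31 (adjusted p = 0.0303, limma). Ccn5, a secreted matricellular protein of mesenchymal cells (chr2:163820861-163833146, plus strand), had 2.67, 5.36, 9.34, 5.58 and 6.30 FPKM in muDX400 tumours, against 0.646, 0.889, 1.41, 0.763 and 1.67 FPKM in isotype tumours, a difference of 1.67 ± 0.23 (adjusted p = 0.0225, limma). Mfap5, a protein of elastic microfibrils (chr6:122505845-122529290, plus strand), had 7.48, 11.96, 16.9, 12.1 and 9.84 FPKM in muDX400 tumours, against 4.63, 3.96, 3.71, 5.79 and 5.84 FPKM in isotype tumours, a difference of 1.10 ± 0.18 (adjusted p = 0.0449, limma). Mfap5 kept its call in 5 of 19 alternatives. In each of the 3 genes muDX400 replicate 3 was the highest library and replicate 1 the lowest of its arm.

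The general fibroblast and matrix genes had smaller differences. None of the 13 members tested passed the threshold, 12 had a positive difference and the median was 0.15. At an unadjusted p under 0.05, 5 of the 13 were higher, where 4.43% of all genes were. Col1a1, the main collagen chain, averaged 360.3 ± 81.9 FPKM in muDX400 tumours and 287 ± 27.6 FPKM in isotype tumours (difference 0.30, limma adjusted p = 0.762). Among transcripts that respond to TGF-beta, Ccn2 had a difference of 0.52 with no overlap of arms (limma adjusted p = 0.0831).

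In the complement list C2 rose, and differences were small in the genes of C1q. C2, a protease of the classical pathway (chr17:34862604-34898265, minus strand), had 2.11, 2.23, 4.25, 2.61 and 2.28 FPKM in muDX400 tumours, against 0.742, 0.869, 0.612, 0.888 and 1.20 FPKM in isotype tumours. Its difference was 0.97 ± 0.14 (adjusted p = 0.0303, limma), and it was above the filter of 1 FPKM in 1 isotype library. All 13 members of the list were tested, all had a positive difference with a median of 0.48, and 8 had an unadjusted p under 0.05, where 4.43% of all genes did in this direction. Apart from C2 none passed the threshold. C4b, whose near-identical neighbour C4a makes its level uncertain, averaged 11.96 ± 6.51 FPKM in muDX400 tumours and 3.37 ± 0.887 FPKM in isotype tumours (difference 1.44, limma adjusted p = 0.0992). C3, the component shared by all complement pathways, averaged 19.4 ± 7.95 FPKM in muDX400 tumours and 8.53 ± 2.20 FPKM in isotype tumours (difference 1.04, limma adjusted p = 0.159). Serping1, the C1 inhibitor, and C1s1, a C1 protease, differed by 0.80 and 0.62, and in C4b, C3, Serping1 and C1s1 the arms did not overlap. C1qa, which macrophages make, averaged 202 ± 28.8 FPKM in muDX400 tumours and 188 ± 40.02 FPKM in isotype tumours, with overlapping arms.

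Neutrophil and mast cell transcripts were low, and S100a9 rose among them. S100a9, a subunit of calprotectin (chr3:90692632-90695721, minus strand), had 1.90, 2.55, 2.97, 1.38 and 2.88 FPKM in muDX400 tumours, against 0.566, 0.672, 0.644, 0.681 and 1.02 FPKM in isotype tumours. The difference was 0.94 ± 0.14 (adjusted p = 0.0327, limma), 1 isotype library was above the filter, and the isotype mean of 0.717 FPKM was the lowest of the 11 models. Its partner S100a8 averaged 1.65 ± 0.616 FPKM in muDX400 tumours and 0.667 ± 0.262 FPKM in isotype tumours and did not pass (limma adjusted p = 0.243). Of 12 neutrophil genes 7 were tested, and 5 of the 7 were higher at an unadjusted p under 0.05, where 4.43% of all genes were. S100a8 and S100a9 were each above the filter in 1 isotype library, so their testing rested on the muDX400 arm. Defining neutrophil genes were low. Ly6g was at most 0.0503 FPKM in muDX400 tumours and 0.154 FPKM in isotype tumours, with overlapping arms. Cxcr2, the receptor for neutrophil chemokines, had 0.135 to 0.376 FPKM in muDX400 tumours, against 0.0248 to 0.0784 FPKM in isotype tumours, with no overlap (exact 2-sided permutation p = 0.00794; adjusted p = 0.308 by limma without the filter). The mast cell proteases Cma1, Mcpt4 and Tpsb2 differed by 0.70, 0.69 and 0.68 and did not pass the threshold, with 4 of 8 mast cell genes tested. All 4 were higher at an unadjusted p under 0.05. Macrophage transcripts had a median difference of 0.14 with 13 of 15 members positive and none past the threshold, and Adgre1, which encodes F4/80, averaged 21.03 ± 4.64 FPKM in muDX400 tumours and 15.97 ± 3.04 FPKM in isotype tumours. Ccl8, a monocyte chemokine, had 15.7 to 38.9 FPKM in muDX400 tumours, against 7.11 to 13.1 FPKM in isotype tumours (difference 1.43, limma adjusted p = 0.0693). Igkc, the constant region of the kappa light chain, had 1.92 to 9.51 FPKM in muDX400 tumours, against 0.103 to 0.834 FPKM in isotype tumours (difference 1.76, limma adjusted p = 0.0529). Every isotype value of Igkc was under 1 FPKM, so it was tested through the muDX400 arm alone.

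**Figure D2:**
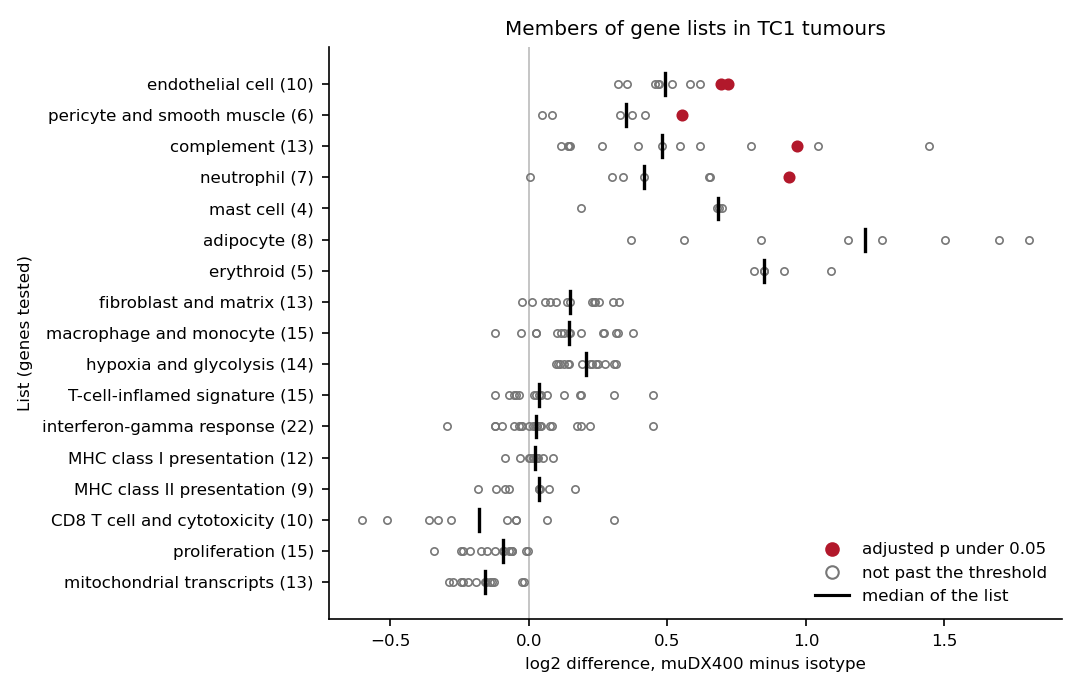
Difference between muDX400 and isotype tumours, on the log2(FPKM + 1) scale, for each tested member of 17 gene lists; filled red points passed the threshold and black bars are medians of the tested members. Endothelial, complement, mast cell and adipocyte members lie to the right of 0, whereas T-cell, interferon and antigen presentation members lie around it.

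Markers of tissue around the tumour varied between libraries, and the adipocyte, skeletal muscle and erythroid list means each overlapped between the arms. The 10 adipocyte genes include 8 that were tested, of which none passed the threshold. All 8 had a positive difference, with a median of 1.21. Of the 8, 6 were higher at an unadjusted p under 0.05, where 4.43% of all genes were. The mean over all 10 was 1.84, 2.89, 3.63, 2.24 and 3.75 in muDX400 replicates 1 to 5, against 1.79, 1.11, 2.37, 1.32 and 2.58 in isotype replicates 1 to 5. The arms overlapped in this mean, with the highest values in muDX400 replicates 3 and 5. Adipoq, which encodes adiponectin, had 1.42 to 14.9 FPKM in muDX400 tumours, against 0.305 to 2.81 FPKM in isotype tumours, and Fabp4, a fatty acid carrier of fat and capillaries, had 24.2 to 60.7 FPKM against 11.0 to 29.1 FPKM in the same order of arms. The skeletal muscle mean ran from 0.317 to 2.75 in muDX400 libraries and from 0.197 to 2.53 in isotype libraries. Erythroid transcripts, which red blood cells carry, had differences of 0.81 to 1.09 in 5 tested genes, none past the threshold. Of the 5, 3 had an unadjusted p under 0.05. The part of these tissues in the results above was not tested. In muDX400 replicates 3 and 5 the adipocyte and the endothelial mean were both the highest of the 10 libraries. In muDX400 replicate 1 the adipocyte mean of 1.84 lay inside the isotype range, and its endothelial mean of 2.88 was above all 5 isotype libraries. The relation between the list means was not tested. Leaving out muDX400 replicates 3 and 5 together was an alternative added after seeing the data. Without them the median endothelial difference was 0.385, the median complement difference 0.31, and 0 genes passed the threshold.

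**Figure D3:**
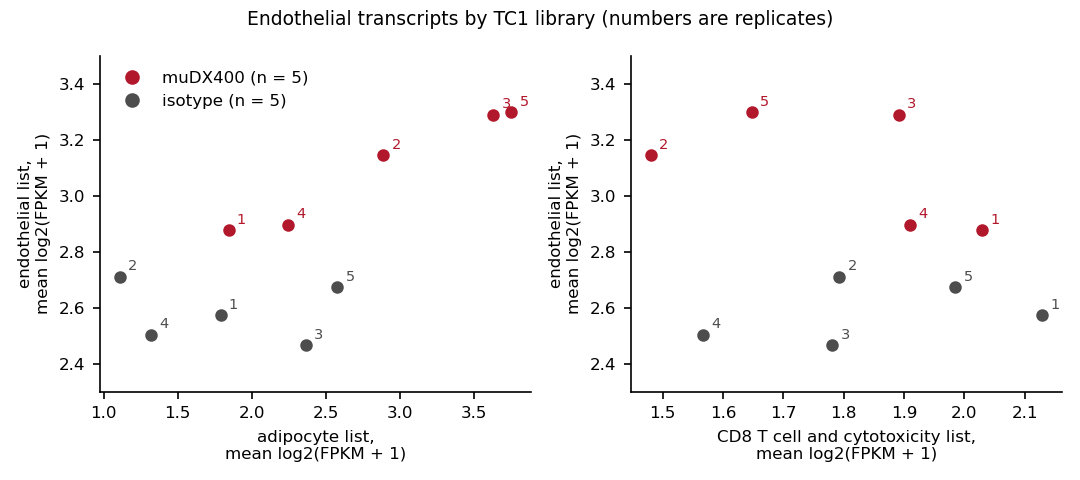
Mean of the endothelial list in each TC1 library against the mean of the adipocyte list (left) and of the CD8 T cell and cytotoxicity list (right), all as log2(FPKM + 1), with replicate numbers beside the points. All 5 muDX400 libraries (red, 2.88 to 3.30) lie above all 5 isotype libraries (grey, 2.47 to 2.71) on the endothelial axis, whereas the arms overlap on both other axes.

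T-cell transcripts were low in both arms, most of them under the filter of 1 FPKM. Of the 15 pan T-cell genes, 3 reached the filter, and the one with a high level among them, Thy1 (163 to 207 FPKM in muDX400 tumours, 164 to 207 FPKM in isotype tumours), is also made by fibroblasts. Cd3e, a chain of the T-cell receptor complex (chr9:44998740-45009627, minus strand), had 0.491, 0.396, 0.661, 0.398 and 0.430 FPKM in muDX400 tumours, against 0.0850, 0.169, 0.0968, 0.242 and 0.296 FPKM in isotype tumours. The arms did not overlap (exact 2-sided permutation p = 0.00794, the smallest that 5 against 5 can give), and in a fit without the filter over 28055 genes its adjusted p was 0.282. Cd8a, the co-receptor of cytotoxic T cells, had 0.401, 0.144, 0.479, 0.317 and 0.343 FPKM in muDX400 tumours, against 0.124, 0.232, 0.141, 0.0259 and 0.220 FPKM in isotype tumours, with muDX400 replicate 2 inside the isotype range (exact permutation p = 0.0238, adjusted p = 0.633 without the filter). Cd4, the co-receptor of helper T cells, averaged 1.16 ± 0.396 FPKM in muDX400 tumours and 0.701 ± 0.149 FPKM in isotype tumours (n = 5 each, exact permutation p = 0.0476, adjusted p = 0.719 without the filter). Trac averaged 1.20 ± 0.522 FPKM in muDX400 tumours and 0.692 ± 0.147 FPKM in isotype tumours, and Foxp3, the factor of regulatory T cells, 0.292 and 0.144 FPKM in the same order of arms.

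Pdcd1, which encodes the target of the antibody (chr1:94038305-94052553, minus strand), had 1.08, 0.233, 0.696, 1.15 and 0.672 FPKM in muDX400 tumours, against 0.676, 0.588, 0.741, 0.209 and 0.668 FPKM in isotype tumours. The arms overlapped (exact permutation p = 0.452), and since the antibody binds the protein, the transcript is no check of the labels. Its ligand Cd274 averaged 5.12 ± 1.80 FPKM in muDX400 tumours and 5.10 ± 0.810 FPKM in isotype tumours (difference -0.04 ± 0.18, limma adjusted p = 0.982). Pdcd1lg2 averaged 1.80 ± 0.420 FPKM in muDX400 tumours and 2.10 ± 0.699 FPKM in isotype tumours (difference -0.12 ± 0.17, limma adjusted p = 0.928). Neither ligand differed beyond the spread between replicates.

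Cytotoxic and interferon genes gave no call. Ifng was at most 0.245 FPKM in muDX400 tumours and 0.0791 FPKM in isotype tumours, and 2 isotype libraries were at 0 (exact permutation p = 0.0238, adjusted p = 0.586 without the filter). Gzmb averaged 5.26 ± 2.08 FPKM in muDX400 tumours and 5.56 ± 2.61 FPKM in isotype tumours (difference -0.05 ± 0.25, limma adjusted p = 0.983). Gzmc, Gzmd and Gzmf, granzymes whose similar sequences make their separate levels uncertain, averaged 23.9, 17.1 and 23.3 FPKM in muDX400 tumours and 31.9, 27.0 and 32.8 FPKM in isotype tumours, and none passed the threshold. Natural killer cells can also make them, and their receptor gene Ncr1 averaged 0.287 FPKM in muDX400 tumours and 0.340 FPKM in isotype tumours. Cxcl9 had 7.67, 1.56, 3.10, 3.27 and 1.76 FPKM in muDX400 tumours, against 4.90, 3.16, 1.20, 0.541 and 1.74 FPKM in isotype tumours, a spread within each arm larger than the difference of 0.45 ± 0.37 (limma adjusted p = 0.851). None of the 22 tested genes of the interferon-gamma list, the 15 of the T-cell-inflamed signature or the 10 of the CD8 and cytotoxicity list had an unadjusted p under 0.05 in either direction, and the list medians were 0.03, 0.03 and -0.18. H2-K1 and H2-Ab1, of MHC class I and class II, differed by 0.02 and -0.09.

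**Figure D4:**
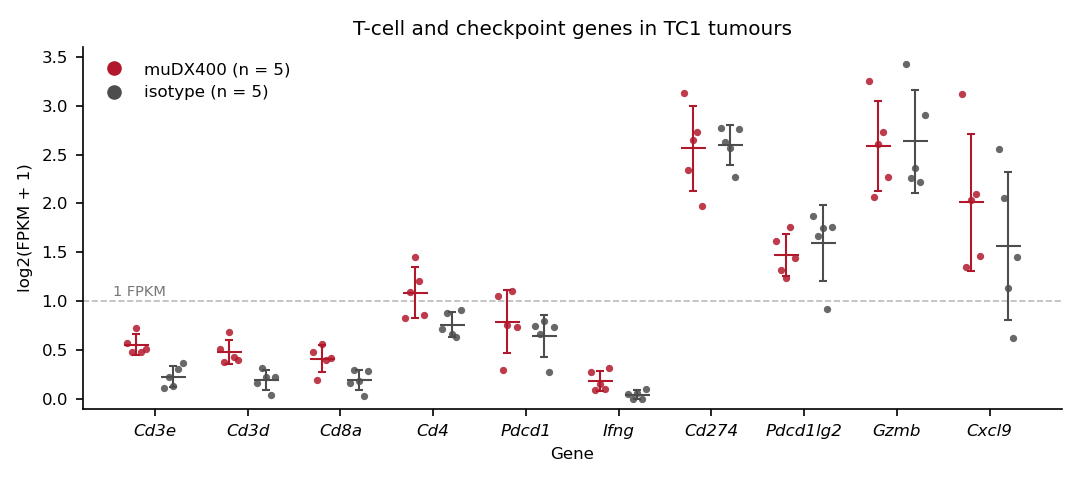
Level of T-cell, checkpoint and chemokine genes in each TC1 library, as log2(FPKM + 1), with muDX400 tumours in red to the left of isotype tumours in grey; bars are the mean and SD of 5 libraries and the dashed line marks 1 FPKM. Cd3e and Cd3d lie below the line in every library with no overlap of arms, and the arms overlap in the other genes.

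No gene passed the threshold as lower. The 10 lower genes with the lowest p among those whose arms did not overlap, pseudogenes and unnamed genes aside, were Pcdhgc4, mt-Nd6, Tpr, Ift57, Smchd1, Mnd1, Magoh, Pdia3, Trdmt1 and Txnl1, with adjusted p of 0.107 to 0.561 by limma. Pcdhgc4, a clustered protocadherin that shares exons with its neighbours so that its level is uncertain, had 4.87, 3.32, 0.884, 0.777 and 4.00 FPKM in muDX400 tumours, against 10.5, 15.2, 5.39, 10.4 and 9.64 FPKM in isotype tumours (difference -1.68 ± 0.34). Tpr, a protein of the nuclear pore, averaged 39.4 ± 6.41 FPKM in muDX400 tumours and 51.3 ± 2.26 FPKM in isotype tumours. All 15 proliferation genes had a negative difference with a median of -0.09, none passed the threshold, and 4 had an unadjusted p under 0.05, where 2.12% of all genes did in this direction, among them Cenpf (-0.34), Cdk1 (-0.15) and Ube2c (-0.17). All 13 mitochondrial transcripts had a negative difference with a median of -0.16, 5 had an unadjusted p under 0.05 (2.12% of all genes) and 2 had arms that did not overlap (0.217% of all genes). Their mean on the log2(FPKM + 1) scale was 9.54 to 9.76 in muDX400 libraries and 9.77 to 9.87 in isotype libraries, so that this sign of RNA quality separated the arms, as did depth; its part in the results above was not tested. The mitochondrial share of all FPKM was 3.14% to 3.67% in muDX400 libraries and 3.54% to 3.83% in isotype libraries, with overlapping arms.

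The 3 untreated baseline tumours give a further description of the called genes, with no test. Pecam1 had 24.2 to 43.8 FPKM, Cdh5 24.5 to 39.2, Adgrf5 8.75 to 14.0, Cxcl14 31.0 to 61.4 and S100a9 3.38 to 30.5 FPKM at baseline. The baseline mean was above those of both later arms in 9 of the 10 called genes, Mfap5 being the exception. For Cxcl14 it was 46.2 FPKM, beside 29.8 FPKM in muDX400 tumours and 6.13 FPKM in isotype tumours. Cd3e had 0.761 to 1.22 FPKM and Pdcd1 1.38 to 1.81 FPKM at baseline.

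The same comparison was made in 3 other models, and the difference between effects was tested in a fit of 40 libraries. Between TC1 and LL2 and between TC1 and B16F10, both also classed Resistant, 0 of 14351 genes differed in effect (0% in each), with 640 and 1126 genes at an unadjusted p under 0.05 by limma. The lowest adjusted p were 0.956 against LL2 and 0.517 against B16F10, so a difference from these models was not shown for any called gene. Pecam1 had a difference of 0.72 in TC1 tumours, 0.30 in LL2 tumours and 0.01 in B16F10 tumours, and Cxcl14 had 2.12, 0.36 and -0.32 in the same order.

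Between TC1 and MC38, a model classed High, 1324 genes differed in effect (9.23%), 414 with a more positive and 910 with a more negative effect in TC1. Median-ratio scaling moved this split to 197 and 1095, and quantile normalisation to 649 and 905. A pseudocount of 0.1, which bears on low genes, gave 724 genes, 227 and 497. Among T-cell genes, all 14 tested pan T-cell genes, 16 of 18 CD8 and cytotoxicity genes and 12 of 18 signature genes had a more negative effect in TC1. The filter of this fit ran over 40 libraries, so members low in TC1 entered through libraries of other models. In TC1 alone 3 pan T-cell, 10 CD8 and cytotoxicity and 15 signature genes passed the filter. The log2(FPKM + 1) scale understates changes of the low members in TC1. Prf1, which encodes perforin, differed by -0.28 in TC1 tumours and 2.77 in MC38 tumours (interaction -3.06 ± 0.39, limma adjusted p = 1.483e-06). Pdcd1lg2 differed by -0.12 in TC1 tumours and 2.82 in MC38 tumours, Gzmb by -0.05 and 2.77, and Cxcr6, which marks tissue-resident T cells, by 0.18 and 2.92, with interactions of -2.94, -2.81 and -2.73 that passed the threshold. Thrsp, a regulator of lipid synthesis, had the most negative interaction of the genes named here, -3.97 ± 0.80 (limma adjusted p = 0.0009373), and in TC1 its values ran from 0.064 to 1.86 FPKM in muDX400 tumours and from 0.111 to 3.51 FPKM in isotype tumours.

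In the other direction, S100a9 differed by 0.94 in TC1 tumours and -1.20 in MC38 tumours (interaction 2.14 ± 0.55, limma adjusted p = 0.01024). S100a8 followed with an interaction of 1.91, and Slpi, a secreted protease inhibitor, with 1.75. Ddit3, a transcription factor of cell stress, had an interaction of 1.38. Of 14 sterol and fatty acid genes 9 had a more positive effect in TC1, with a median effect of 0.05 in TC1 tumours and -0.69 in MC38 tumours. Of the genes of the endothelial list 0 of 11 passed, where 9.23% of all genes did, so this count does not set the list apart. Their median interaction was -0.53. Their median effect was 0.48 in TC1 tumours and 0.94 in MC38 tumours, and Pecam1 and Cdh5 differed by 1.45 and 1.26 in MC38. Outside that list, Flt4 and Icam1 had a more negative effect in TC1. Their interactions were -0.747 and -1.595 (limma adjusted p = 0.02076 and 0.001259). A p that misses the threshold does not show that the effects were alike. Over the 10 endothelial genes tested in TC1, the median difference between arms was also above 0.49 in MC38 (0.97), RENCA (0.90) and CM3 (0.63) and lay between -0.08 and 0.27 in the other 7 models.

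**Figure D5:**
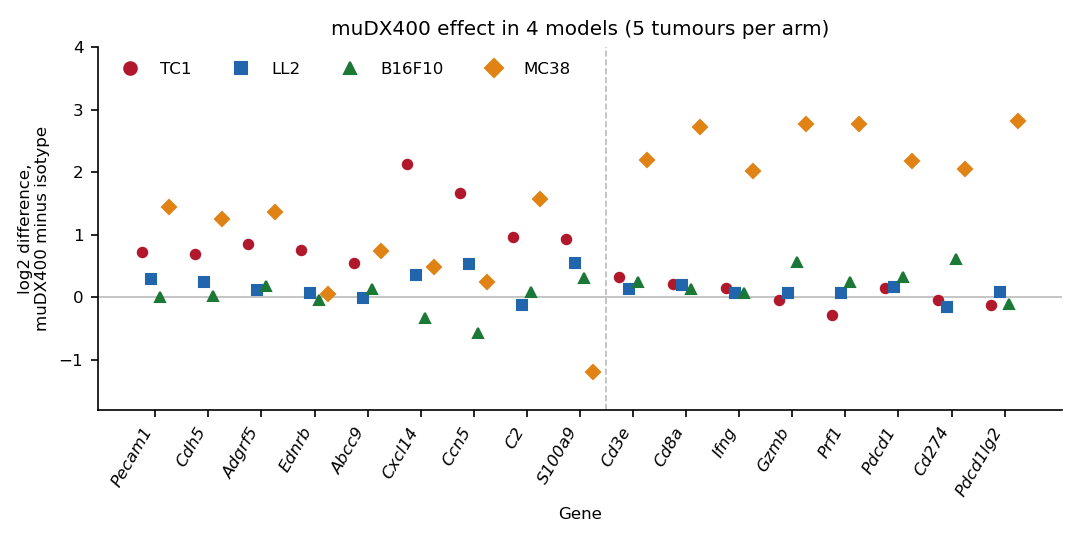
Difference between muDX400 and isotype tumours, on the log2(FPKM + 1) scale, in TC1, LL2, B16F10 and MC38 for 9 genes past the threshold in TC1 (left of the dashed line) and 8 T-cell and checkpoint genes (right). For Cd8a, Gzmb and Pdcd1lg2 MC38 lies at 2.72, 2.77 and 2.82, whereas TC1 lies between -0.12 and 0.22. In TC1 Cd8a, Cd3e, Ifng and Pdcd1 were under the filter, and this scale understates their changes there.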

How the data were processed

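Total RNA from snap-frozen tumours was depleted of ribosomal RNA and sequenced as stranded 50 base paired-end libraries, per the labels' protocols. The deposited table holds FPKM values made by the authors for 54232 gene identifiers; the aligner, quantifier, genome build and any scaling were not given in the sources used here. Identifiers were named and placed with GENCODE M21 (GRCm38), which matched 54165. All columns were matched to samples and 0 went unused. Genes with at least 1 FPKM in at least 5 of 10 libraries were tested as log2(FPKM + 1), which understates changes of low genes, in limma 3.58.1 (R 4.3.3), fitting a trend of variance on level; the fit across models used 40 libraries. FPKM are not counts, so depth was estimated from the smallest value steps of single-transcript genes. Genes under the filter were compared by exact permutation (252 arrangements). The scripts were tested on simulated data.

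The members, the 43 gene lists and the tests were chosen with earlier results of these data known, and 8 further lists after values were seen. Genes were named by a rule: 10 fixed genes, the largest rises and falls, the leading members of each list, the label markers, and the genes leading each interaction and principal component; others were chosen after their values were seen, and some genes under the rule are not reported here. The labels give each library as a separate sample of its group and state no mouse numbers, so p-values measure the spread between these samples. No label says that replicate numbers pair the arms. Same-numbered residuals correlated at -0.016 to 0.19, and so few pairs cannot exclude a pairing. Alternatives were the pseudocount, the filter, 2 scalings, a replicate block, array weights, the 40-library spread, protein-coding genes only and leaving out libraries. Figures were drawn with matplotlib in Python.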

Additional observations from a re-analysis of the deposited data

Results flagged for a closer look

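Libraries that stood apart from the other 4 of their arm were sought in 222 sets of 5 values by Dixon's criterion, and 15 were found; chance gives about 1 in 20. Values here are log2(FPKM + 1), with the range of the other 4 libraries in brackets. In the muDX400 arm, replicate 3 was high for C2 at 2.39 (1.64 to 1.85) and for Ednrb at 3.12 (2.54 to 2.67). In the isotype arm, replicate 1 was low for Cxcl14 at 1.64 (2.88 to 3.32) and for Ednrb at 1.84 (1.97 to 2.02). Isotype replicate 2 was high for Cpa3 at 0.966 (0.468 to 0.58). Isotype replicate 3 was high for S100a8 at 1.09 (0.592 to 0.671) and for the mitochondrial list mean at 9.87 (9.77 to 9.79), and low for Tek at 0.352 (0.69 to 0.755). Isotype replicate 5 was high for Kdr at 2.28 (1.97 to 2.02) and S100a9 at 1.02 (0.647 to 0.749).

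Isotype replicate 4 was low for 5 of the values that involve macrophages and checkpoints: Adgre1 at 3.54 (4.16 to 4.27), C1qa at 6.92 (7.57 to 7.81), the macrophage and monocyte list mean at 4.64 (5.14 to 5.22), Pdcd1 at 0.274 (0.667 to 0.80) and Pdcd1lg2 at 0.918 (1.67 to 1.88). Without that library the main comparison gave 0 genes past the threshold.

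The effect of muDX400 differed between TC1 and MC38, by the interaction test, for the 9 genes listed here. They were chosen by the size of their interaction among genes that passed the TC1 filter. Other genes named above passed the threshold too, among them Pdcd1, Cd274, Cd8a, Cd3e, Ifng and Cd4, all with a more negative effect in TC1. Of these only Cd274 passed the filter in TC1 alone. The others entered through libraries of other models, and the log2(FPKM + 1) scale understates their changes in TC1. TC1 minus MC38 was -3.97 for Thrsp, -3.06 for Prf1, -2.94 for Pdcd1lg2, -2.81 for Gzmb and -2.73 for Cxcr6. It was 2.14 for S100a9, 1.91 for S100a8, 1.75 for Slpi and 1.38 for Ddit3.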

How the results depend on the processing

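The 10 genes past the threshold in TC1 were 13 with a pseudocount of 0.1, 7 with median-ratio scaling, 6 with quantile normalisation, 11 among protein-coding genes only, 1 with no expression filter, 35 with array weights and 0 with the spread of 40 libraries. Leaving out a single library gave 0 to 36, and leaving out muDX400 replicates 3 and 5 together, an alternative added after seeing the data, gave 0. The array weights and the omission of muDX400 replicate 1 both kept all 10 genes, the quantile set kept 6 of them, and the set without the filter kept 0. With a replicate block 16 genes passed, 15 higher and 1 lower, with 6 of the 10 among them. No label says that the numbers pair the arms, and 1 of 5 libraries correlated best with its own number. The interaction with B16F10 gave 8 genes without the filter and 1 without muDX400 replicate 1 (0 to 1 over omissions of a library), and that with LL2 gave 10 without the filter. The interaction with MC38 gave 724 genes with a pseudocount of 0.1, beside 1324. The causes of these shifts were not tested. Of the differences given for single genes, no called value changed sign under any alternative. T-cell transcripts under 1 FPKM rest on few fragments, and depth limits what can be seen of them.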

Other observations

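Some connective tissue and myeloid transcripts outside the called genes had non-overlapping arms; the lists that hold them were assembled after values had been seen, so they are a description. Pi16, a marker of adventitial fibroblasts, averaged 5.63 ± 4.12 FPKM in muDX400 tumours and 1.54 ± 0.391 FPKM in isotype tumours, and Col14a1, a collagen of loose connective tissue, averaged 2.52 ± 1.02 FPKM and 0.812 ± 0.167 FPKM in the same order of arms (SD, n = 5 each). Wfdc17 and the chemokine Ccl6, both made by macrophages, had differences of 0.99 and 1.47. None of these 4 genes passed the threshold, with adjusted p of 0.0808 to 0.29 by limma.

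None of the following genes passed the threshold. Krt19, a keratin of simple epithelium, had 1.34 to 3.15 FPKM in muDX400 tumours, against 0.668 to 1.15 FPKM in isotype tumours, with no overlap (difference 0.85, limma adjusted p = 0.0831). All 14 hypoxia and glycolysis genes had a positive difference with a median of 0.21, and none had an unadjusted p under 0.05. Slc2a1, the main glucose transporter, had 85.7 to 210 FPKM in muDX400 tumours, against 68.6 to 161 FPKM in isotype tumours. Dusp6, which RAS signalling induces, averaged 107 ± 8.22 FPKM in muDX400 tumours and 111 ± 7.90 FPKM in isotype tumours, and Cdkn1a, a target of p53, averaged 318 ± 37.5 FPKM and 332 ± 21.1 FPKM in the same order of arms. The isotype mean of Cdkn1a was the highest of the 11 models.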
